A study of Rattus norvegicus with 8 samples.

Results

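Messenger RNA of 36 interferon-related genes was examined in thoracic spinal cord after injury. The genes are interferon receptors and genes whose transcription interferons switch on, and they were chosen by name, 39 in all. A gene counted as measured where a probe set of the array carried its symbol alone, and where a gene had several, the brightest on average was kept. Of the 39 genes 36 were measured, among 18166 genes measured in this way on the array, and Bst2, Eif2ak2 and Ifnar2 were not analysed here. The rats were males of the Long Evans strain, aged about 175 days and weighing 400 g. In the SCI group (4 arrays) rats had a thoracic spinal cord injury, and in the sham group (4 arrays) they had a laminectomy alone. Every rat of both groups ate chow through 4 weeks of recovery and then a palatable high-fat diet, in a study described as totalling 8 weeks, so the diet is shared and is not compared. The sources used here do not say how or at what level the injury was made, and the labels differ on which thoracic segments were taken. The design text names 10 rats, and the labels do not tie an array to a numbered animal, so p-values measure the spread between these arrays. Arrays are numbered 1 to 4 within each group, and the numbers pair nothing across groups.

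Interferons are secreted proteins that cells release on sensing viral nucleic acid or tissue damage. Type I interferons bind a receptor made of Ifnar1 and Ifnar2, and interferon gamma, made by lymphocytes, binds one made of Ifngr1 and Ifngr2. Both receptors act through Janus kinases and STAT proteins. Stat2 and Irf9 belong to a complex that binds the interferon-stimulated response element (ISRE) of target promoters, while the response to interferon gamma runs largely through the gamma-activated site (GAS). In the spinal cord, microglia, macrophages, astrocytes and vessel cells can all respond to interferon.

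The promoters are shown because these elements are what the induced genes are known for. RefSeq promoter windows of the GRCr8 assembly, 250 bases before to 50 after the annotated start, were held for 31 of the 39 genes and for 28 of those measured. Sequences are 5′ to 3′ along the gene, and capitals mark a match on either strand to the ISRE core (GAAA, any 2 bases, GAAA), to its 12-letter form, which is the core followed by CT, or to the GAS letters (TTC, any 3 bases, GAA), which read the same on both strands. The first lines show the 250 bases before the start for the 3 induced genes with the largest rises among those with a window, and for the receptor with the largest rise.
Mx1 (chr11:50294607-50294856, minus strand): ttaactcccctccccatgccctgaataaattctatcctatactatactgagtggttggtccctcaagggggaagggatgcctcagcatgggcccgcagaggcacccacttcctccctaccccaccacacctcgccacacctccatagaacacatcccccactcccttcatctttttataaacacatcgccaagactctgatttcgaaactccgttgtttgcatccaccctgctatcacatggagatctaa
Ifitm3 (chr1:205541759-205542008, minus strand): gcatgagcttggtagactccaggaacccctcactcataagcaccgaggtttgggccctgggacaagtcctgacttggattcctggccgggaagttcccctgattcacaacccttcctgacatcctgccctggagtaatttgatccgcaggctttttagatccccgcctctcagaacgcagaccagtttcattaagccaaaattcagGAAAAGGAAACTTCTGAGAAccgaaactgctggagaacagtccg
Ifitm2 (chr1:205482349-205482598, minus strand): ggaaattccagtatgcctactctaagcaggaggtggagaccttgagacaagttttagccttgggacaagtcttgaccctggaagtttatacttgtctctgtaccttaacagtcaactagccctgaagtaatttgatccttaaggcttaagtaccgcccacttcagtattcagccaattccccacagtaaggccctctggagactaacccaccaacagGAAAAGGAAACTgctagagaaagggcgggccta
Ifngr1 (chr1:16152660-16152909, plus strand): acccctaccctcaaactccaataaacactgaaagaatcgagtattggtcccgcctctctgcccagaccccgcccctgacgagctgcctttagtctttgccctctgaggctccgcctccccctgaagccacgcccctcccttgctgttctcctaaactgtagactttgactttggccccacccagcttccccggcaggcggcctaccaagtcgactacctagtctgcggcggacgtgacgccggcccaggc

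Ifitm2 and Ifitm3 carried the same 12 letters, at positions -33 to -22 and -44 to -33 from the start, and in Ifitm3 a GAS match from -33 to -25 overlapped them by its first base. The windows of Mx1 and Ifngr1 held none of the letters searched, which says nothing of sites elsewhere. Among the 25 induced genes measured with a window, 15 (60%) held the ISRE core, against 1312 of all 33469 windows (3.92%). The longer form was found in 8 of the 25 (32%) and in 0.278% of all windows, and GAS letters in 9 (36%) and in 8.87% of all windows. The windows of the 3 measured receptors held none of them.

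The ISRE core was found both in genes that rose in SCI (9 of 16 windows) and in those that did not pass the test (6 of 9 windows). The lines below give the core match nearest the start with 10 bases on each side, for 4 genes that rose (Ifi27, Ifih1, Irf7 and Rsad2) and 4 that did not pass (Gbp2, Gbp5, Ifit3 and Oas1a). A core on the opposite strand reads TTTC, 2 bases, TTTC, with AG before it in the 12-letter form. In Oas1a 2 cores overlap, and the first is part of a 12-letter form.
Ifi27 (chr6:128355218-128355247, plus strand): gagagctgggGAAATGGAAACTtacctcat
Ifih1 (chr3:67684008-67684037, minus strand): gaagagaatcGAAACAGAAAccgatgtgtg
Irf7 (chr1:205800073-205800102, minus strand): acagtttaggTTTCATTTTCccgagacgca
Rsad2 (chr6:48788248-48788277, minus strand): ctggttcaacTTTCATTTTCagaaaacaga
Gbp2 (chr2:234005686-234005715, plus strand): agttttttAGTTTCACTTTCattgtcttaa
Gbp5 (chr2:233910933-233910962, plus strand): acttgtgtAGTTTCAATTTCagtttagagg
Ifit3 (chr1:241527272-241527301, plus strand): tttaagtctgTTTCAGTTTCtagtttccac
Oas1a (chr12:41330421-41330450, plus strand): tcggGAAATGGAAACTGAAAatcttgttcc

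In Igtp, Irgm and Parp14 a GAS match stood 2 bases before an ISRE core, in the same order and spacing. This arrangement was picked out after the sequences were seen. Searched on both strands it occurred in 7 of the 33469 windows (0.0209%).
Igtp (chr10:42874923-42874963, plus strand): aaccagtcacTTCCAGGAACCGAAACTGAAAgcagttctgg
Irgm (chr10:33742593-33742633, minus strand): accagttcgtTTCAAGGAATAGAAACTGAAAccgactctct
Parp14 (chr11:78408037-78408077, plus strand): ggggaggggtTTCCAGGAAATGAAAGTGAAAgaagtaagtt

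Besides these 3, the windows with the arrangement were those of Ifgga2l2, Irgm2, Stra8 and an uncharacterised locus. Of them Ifgga2l2 and Stra8 were measured. Ifgga2l2, outside the list and named after its value was seen, rose by 1.19 in SCI (adjusted p = 0.000419), and Stra8 differed by -0.16 without passing the test. Igtp and Irgm rose, and Parp14 did not pass.

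Of the 36 genes, 24 were higher in SCI than in sham and 0 were lower, at a limma p under 0.05 after Benjamini-Hochberg adjustment over all 18166 genes. Over all genes, 7.10% were called higher and 7.06% lower. The median difference (SCI minus sham) was 0.54 on the log2 scale over the 36 genes and -0.01 over all genes, and 35 of the 36 differences were above 0. At least 2-fold rises were called for 7 of the 36 (Ifitm1, Mx1, Ifitm3, Ifitm2, Mx2, Ifi27 and Irf7), against 1.45% of all genes. All 4 SCI arrays lay above all 4 sham arrays in 24 of the 36 genes, against 9.36% of all genes, and 0 of the 36 had all SCI arrays below all sham arrays. Separation in either direction was found in 20.3% of all genes. Calls and separation overlap without being equal, since 22 genes were both called and separated. Mx2 and Ifi44 were called with overlapping groups, and Ifit2 and Xaf1 were separated without being called.

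**Figure D1:**
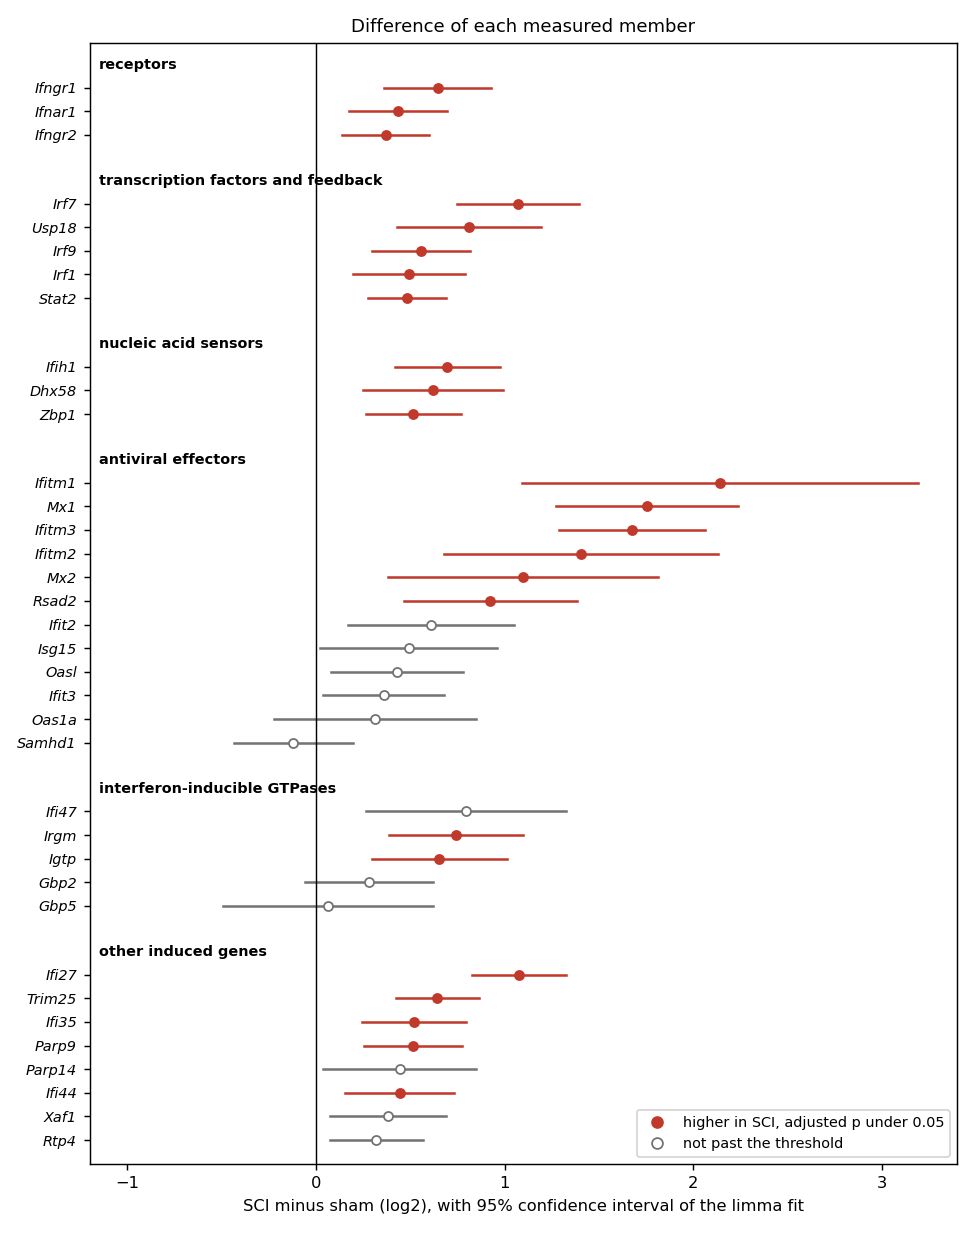
Difference between SCI and sham (horizontal axis, log2) for each measured gene, grouped by role, with the 95% confidence interval of the limma fit as a bar. Filled red points are the 24 genes called higher in SCI, and open grey points are the 12 that did not pass; Samhd1 alone lies below 0.

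The number called depends on the samples and on what else is tested. It was 17 to 23 when any 1 array was left out. The sample titles carry a number, 4, 6, 7 and 8 for SCI arrays 1 to 4 and 5, 9, 10 and 11 for sham arrays 1 to 4. Its meaning is not stated in the sources used here. It follows the group in part, so a fit with both cannot fully tell them apart. With the title number as a covariate the count of calls was 10, where 4.48% of all genes were higher. In the 5 arrays left after removing SCI 3, sham 1 and sham 2, which the second principal component set apart (called the 5-array set), it was 9, where 3.10% of all genes were higher. When all 36685 probe sets were tested in place of 18166 genes it was 12, where 2.80% were higher. The calls lost there were those of Ifnar1, Ifngr2, Irf1, Dhx58, Mx2, Rsad2, Ifitm1, Ifitm2, Igtp, Ifi35, Ifi44 and Parp9. Their adjusted p was 0.0525 (Parp9) to 0.133 (Mx2). Irf7, Usp18, Ifitm3, Ifi27 and Trim25 were called in each of the 17 alternative analyses, and Mx1 in the 16 that tested it, since the filter on dim genes removed it.

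The 3 interferon receptor chains measured rose by 0.37 to 0.64. Ifngr1, the ligand-binding chain of the interferon gamma receptor (probe set 17610659), read 8.34, 8.46, 8.09 and 7.99 on the SCI arrays, against 7.72, 7.37, 7.67 and 7.53 on the sham arrays. Its SCI arrays were all above its sham arrays, with SCI 1 and SCI 2 highest, and the rise was 0.64 (SE 0.13, adjusted p = 0.00769), a 1.56-fold change. The p was 0.0578 with the title number as covariate and 0.0682 in the 5-array set. Ifnar1, a chain of the type I receptor, read 7.46, 7.46, 7.36 and 7.42 on the SCI arrays, against 6.66, 7.02, 7.15 and 7.13 on the sham arrays. The SCI arrays spanned 0.10 and sham 1 was the lowest, and the rise was 0.44 (SE 0.12, adjusted p = 0.0321). Ifngr2, the signalling chain of the gamma receptor, read 6.31, 6.39, 6.42 and 6.46 on the SCI arrays, against 5.98, 5.84, 6.23 and 6.04 on the sham arrays. Its groups did not overlap, with sham 3 nearest to the SCI arrays, and the rise was 0.37 (SE 0.10, adjusted p = 0.0372). Both calls rested on the full set of arrays. The p of Ifnar1 was 0.0551 to 0.0806 without SCI 1, 2, 3 or 4 or sham 1 or 2. That of Ifngr2 was 0.0583 to 0.0908 without any single array but sham 3. In the 5-array set it was 0.168 for Ifnar1 and 0.305 for Ifngr2. Both calls were also lost with median centring and with all probe sets tested, and that of Ifngr2 with the covariate (0.0662).

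In the GRCr8 gene order Ifnar2, Il10rb, Ifnar1 and Ifngr2 are neighbours on chromosome 11. Il10rb, a chain shared by the receptors of interleukin 10 and of type III interferons, rose by 1.36 (SE 0.14, adjusted p = 0.000173) beside the smaller rises of Ifnar1 and Ifngr2. Ifnlr1, the other chain of the type III interferon receptor and likewise no member of the list of 39, differed by -0.06 (adjusted p = 0.866).

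All 5 transcription factors and feedback genes rose. Irf7, the factor that amplifies type I interferon production (probe set 17638314), read 5.11, 5.78, 5.32 and 5.45 on the SCI arrays, against 4.44, 4.49, 4.31 and 4.12 on the sham arrays. The lowest SCI array was 0.62 above the highest sham array, and the rise was 1.07 (SE 0.15, adjusted p = 0.000949), a 2.10-fold change. Usp18, which removes Isg15 from proteins and dampens type I receptor signalling, read 5.28, 5.69, 5.14 and 5.38 on the SCI arrays, against 4.11, 4.92, 4.56 and 4.66 on the sham arrays. SCI 2 was its highest array and sham 1 its lowest, and the rise was 0.81 (SE 0.17, adjusted p = 0.0107). The other probe set of Usp18 had a difference of 1.20 (SE 0.25), in the same direction. Irf9, the DNA-binding part of the complex with Stat2, read 6.43, 6.67, 6.24 and 6.24 on the SCI arrays, against 5.97, 5.86, 5.80 and 5.73 on the sham arrays. The groups were separate and SCI 2 again was highest, with a rise of 0.56 (SE 0.12, adjusted p = 0.0104). Its p was 0.0731 with the covariate and 0.0531 in the 5-array set.

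Stat2, its partner, rose by 0.48 (SE 0.09, adjusted p = 0.00639), with 6.28 to 6.52 on the SCI arrays and 5.81 to 5.98 on the sham arrays, and its p was 0.0607 in the 5-array set. Irf1, a factor induced chiefly by interferon gamma, read 5.28, 5.27, 5.53 and 5.46 on the SCI arrays, against 5.13, 5.08, 4.62 and 4.73 on the sham arrays. The groups were separate by 0.14, with sham 1 and sham 2 nearest to the SCI arrays. The rise was 0.49 (SE 0.13, adjusted p = 0.0325), and its p was 0.0512 to 0.0916 without SCI 1, 2, 3 or 4 or sham 3 or 4 and 0.167 with the covariate.

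The 3 nucleic acid sensors measured rose by 0.52 to 0.70. Ifih1 (MDA5), which recognises long double-stranded RNA, read 4.94, 4.91, 4.91 and 4.67 on the SCI arrays, against 4.07, 4.06, 4.50 and 4.02 on the sham arrays. Within each group 3 arrays lay close together, SCI 4 was low and sham 3 was high, and the groups stayed apart. The rise was 0.70 (SE 0.13, adjusted p = 0.00471). Dhx58 (LGP2), a helicase that regulates Ifih1, read 4.36, 5.04, 4.83 and 4.49 on the SCI arrays, against 3.81, 4.16, 3.92 and 4.34 on the sham arrays. SCI 1 was only 0.02 above sham 4, and the rise was 0.62 (SE 0.17, adjusted p = 0.0314). Zbp1, a sensor of left-handed nucleic acids, read 4.12, 4.12, 4.00 and 3.85 on the SCI arrays, against 3.38, 3.54, 3.73 and 3.36 on the sham arrays. Its groups were separate by 0.12, and the rise was 0.52 (SE 0.11, adjusted p = 0.0121). The p of Dhx58 was 0.0540 to 0.0849 without SCI 2 or 3 or sham 1, 2 or 3. In the 5-array set it was 0.108 for Ifih1, 0.255 for Dhx58 and 0.134 for Zbp1, and with the covariate it was 0.0616 for Zbp1.

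Of 12 antiviral effectors measured, 6 rose and 6 did not pass. Ifitm1, a membrane protein that blocks viral fusion (probe set 17622112), read 7.11, 5.43, 6.73 and 4.42 on the SCI arrays, against 3.78, 3.82, 3.97 and 3.54 on the sham arrays. The sham arrays spanned 0.44 while the SCI arrays spanned 2.69, with SCI 1 and SCI 3 high and SCI 4 only 0.44 above the highest sham array. The mean was 5.92 ± 1.23 in SCI and 3.78 ± 0.18 in sham (SD, n = 4 each), and the rise of 2.14 (SE 0.48, adjusted p = 0.0129) was a 4.42-fold change. Ifitm2, its close relative, read 6.11, 5.86, 6.66 and 4.95 on the SCI arrays, against 4.81, 3.92, 4.92 and 4.31 on the sham arrays. It ranked SCI 3 and SCI 1 highest and SCI 4 lowest, 0.04 above sham 3, and rose by 1.41 (SE 0.33, adjusted p = 0.0167). Ifitm3, the best known restriction factor of the family (probe set 17638220), read 8.25, 8.63, 8.24 and 7.90 on the SCI arrays, against 6.55, 6.46, 6.99 and 6.32 on the sham arrays. Here the SCI arrays spanned 0.73 and the groups were 0.91 apart, with a rise of 1.67 (SE 0.18, adjusted p = 0.000202), a 3.19-fold change. Its other probe set had 1.38 (SE 0.18).

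The p of Ifitm1 and Ifitm2 was 0.0875 and 0.103 with the covariate, and 0.151 and 0.135 in the 5-array set. Ifitm2, Ifitm1 and Ifitm3 are neighbours on chromosome 1 in the GRCr8 gene order. They are related in sequence, and whether their probe sets share signal was not tested. The next gene, Ifitm6, differed by -0.06 (adjusted p = 0.871).

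Mx1, a dynamin-like GTPase that traps viral nucleoproteins (probe set 17668239), read 4.97, 5.74, 4.90 and 4.79 on the SCI arrays, against 3.46, 3.18, 3.00 and 3.74 on the sham arrays. SCI 2 was the highest by 0.77 and the lowest SCI array was 1.05 above the highest sham array. The mean was 5.10 ± 0.43 in SCI and 3.34 ± 0.32 in sham (SD, n = 4 each), and the rise of 1.75 (SE 0.22, adjusted p = 0.000555) was a 3.38-fold change. Mx2, a related GTPase, read 6.79, 6.31, 7.09 and 5.58 on the SCI arrays, against 5.94, 5.60, 4.81 and 5.03 on the sham arrays. SCI 4 lay below sham 1, the other SCI arrays lay above all sham arrays, and the difference was 1.10 (SE 0.32, adjusted p = 0.0463). That call was lost without SCI 1, 2 or 3 or sham 2, 3 or 4, with a p of 0.0694 to 0.12. It was also lost under quantile normalization, with a trended robust variance, with all probe sets tested (0.133) and in the 5-array set (0.0617). With the covariate the difference was 0.65 (adjusted p = 0.251). Between Mx1 and Mx2 on chromosome 11, Fam3b differed by 0.01 (adjusted p = 0.971). Rsad2 (viperin), which makes an antiviral nucleotide, read 5.86, 6.10, 5.46 and 5.37 on the SCI arrays, against 4.48, 5.14, 5.04 and 4.42 on the sham arrays. Its groups were separate by 0.22, and the rise was 0.92 (SE 0.21, adjusted p = 0.0134), with a p of 0.0691 with the covariate and 0.0653 in the 5-array set.

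**Figure D2:**
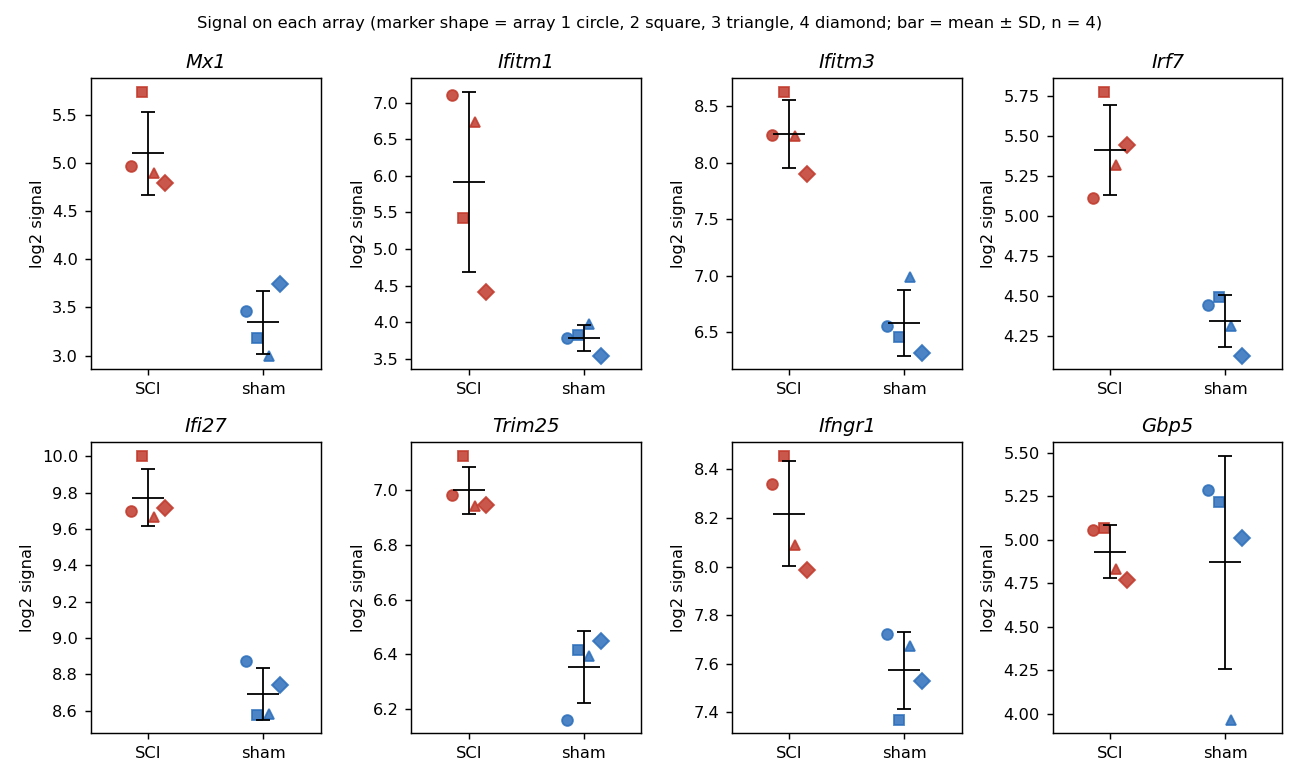
Log2 signal on each array (vertical axis) for 8 of the genes, SCI left and sham right, with marker shapes for arrays 1 to 4 and bars for the mean and SD (n = 4). The groups are separate in Mx1, Ifitm1, Ifitm3, Irf7, Ifi27, Trim25 and Ifngr1 and overlap in Gbp5; the SCI arrays of Ifitm1 span 4.42 to 7.11.

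Several effectors that are among the best known interferon-induced genes did not pass the test. The filter on dim genes removed Ifit3, Isg15, Oasl and Samhd1 among the effectors that did not pass, and Mx1 among those that rose. Ifit2, which binds viral RNA, read 6.11, 6.33, 5.46 and 5.48 on the SCI arrays, against 5.37, 4.92, 5.35 and 5.30 on the sham arrays. SCI 1 and SCI 2 stood high while SCI 3 and SCI 4 lay just above sham 1. The difference was 0.61 (SE 0.20, adjusted p = 0.0689), and it passed without SCI 3 or SCI 4 (0.0417 to 0.0420). With all arrays it also passed with a trended robust variance, with array weights and with dim genes filtered out. Its neighbour Ifit3 read 4.16, 4.34, 3.98 and 3.83 on the SCI arrays, against 4.01, 3.80, 3.47 and 3.60 on the sham arrays, with SCI 4 below sham 1 and a difference of 0.36 (SE 0.15, adjusted p = 0.139). Isg15, a ubiquitin-like protein that becomes attached to other proteins, read 3.76, 4.70, 3.59 and 4.02 on the SCI arrays, against 3.76, 3.32, 3.44 and 3.59 on the sham arrays. SCI 2 and SCI 4 lay above all sham arrays and SCI 1 and SCI 3 did not, and the difference was 0.49 (SE 0.21, adjusted p = 0.167) with a 95% interval of 0.02 to 0.96.

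Oasl, a relative of the oligoadenylate synthetases, read 3.53, 4.01, 3.44 and 3.60 on the SCI arrays, against 3.01, 3.58, 3.02 and 3.25 on the sham arrays. Sham 2 lay above SCI 1 and SCI 3, and the difference was 0.43 (SE 0.16, adjusted p = 0.104), which passed without sham 2 (0.0421). Oas1a, which makes the oligoadenylates that activate RNase L, had 4.86 to 5.14 on the SCI arrays and 3.77 to 5.03 on the sham arrays, where sham 3 was low. The difference was 0.31 (SE 0.24, adjusted p = 0.472), with an interval of -0.22 to 0.85, and without sham 3 it was 0.02. Samhd1, which depletes nucleotides needed by retroviruses, had 4.21 to 4.42 in SCI and 3.99 to 4.70 in sham, and a difference of -0.12 (SE 0.14, adjusted p = 0.666) with an interval of -0.44 to 0.19.

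Among the interferon-inducible GTPases, which take part in defence against intracellular microbes, Irgm and Igtp rose. Irgm read 5.78, 5.74, 5.69 and 5.31 on the SCI arrays, against 4.96, 5.29, 4.66 and 4.65 on the sham arrays. Its lowest SCI array was 0.02 above the highest sham array, sham 2, and the rise was 0.74 (SE 0.16, adjusted p = 0.0118), with a p of 0.0820 with the covariate. Igtp read 5.44, 5.27, 5.29 and 4.82 on the SCI arrays, against 4.81, 4.71, 4.24 and 4.44 on the sham arrays, where SCI 4 and sham 1 nearly met. The rise was 0.65 (SE 0.16, adjusted p = 0.0213), and its p was 0.0552 to 0.0614 without SCI 1, 2 or 3 or sham 3 or 4. With the covariate it was 0.42 (adjusted p = 0.124), and in the 5-array set the p was 0.0573. Ifi47, of the same family, read 6.32, 6.06, 5.98 and 5.15 on the SCI arrays, against 5.57, 4.92, 4.99 and 4.85 on the sham arrays. SCI 4 lay below sham 1, and the difference of 0.79 (SE 0.24, adjusted p = 0.0513) did not pass. It passed without SCI 4 or sham 1 (0.00501 to 0.0287). With all arrays it passed with a trended robust variance, with array weights and with dim genes filtered out. With the covariate it was 0.39.

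Gbp2 and Gbp5 are guanylate-binding proteins, induced strongly by interferon gamma in many cells. Gbp2 read 5.13, 5.34, 5.68 and 5.05 on the SCI arrays, against 4.98, 5.31, 4.92 and 4.86 on the sham arrays. The groups overlapped and SCI 3 was the highest array, with a difference of 0.28 (SE 0.15, adjusted p = 0.289) and an interval of -0.06 to 0.62. Gbp5 read 5.06, 5.07, 4.83 and 4.77 on the SCI arrays, against 5.29, 5.22, 3.96 and 5.01 on the sham arrays. All SCI arrays lay inside the sham range, sham 3 was lowest by 1.05, and the difference was 0.06 (SE 0.25, adjusted p = 0.914) with an interval of -0.49 to 0.62. Without sham 3 it was -0.24. Whether the Gbp genes differ from Irgm and Igtp in their change was not tested.

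Of the 8 other induced genes 5 rose. Ifi27, a mitochondrial protein and a classical type I target (probe set 17818092), read 9.70, 10.00, 9.67 and 9.71 on the SCI arrays, against 8.87, 8.58, 8.58 and 8.74 on the sham arrays. The groups were 0.79 apart, SCI 2 was highest, and the rise was 1.08 (SE 0.11, adjusted p = 0.0002), a 2.11-fold change whose p was 0.000476 to 0.00109 without any 1 array. Trim25, the ubiquitin ligase that activates the RNA sensor RIG-I, read 6.98, 7.13, 6.94 and 6.95 on the SCI arrays, against 6.16, 6.42, 6.39 and 6.45 on the sham arrays. The groups were 0.49 apart and sham 1 was lowest, with a rise of 0.64 (SE 0.10, adjusted p = 0.00201). Parp9 rose by 0.51 (SE 0.12, adjusted p = 0.0151), with 5.31 to 5.49 in SCI and 4.63 to 5.11 in sham, and its p was 0.101 with the covariate. Parp9 works with the ubiquitin ligase Dtx3l, which lies between Parp9 and Parp14 on chromosome 11 and rose by 0.74 (SE 0.15, adjusted p = 0.00782). Parp14, an ADP-ribosyltransferase, had 4.48 to 5.23 in SCI and 4.09 to 4.75 in sham, and a difference of 0.44 (SE 0.18, adjusted p = 0.147).

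Ifi35, a partner of Nmi, read 4.43, 4.23, 4.61 and 4.19 on the SCI arrays, against 3.97, 3.97, 3.81 and 3.63 on the sham arrays. The groups were separate by 0.21 and the rise was 0.52 (SE 0.12, adjusted p = 0.0184), with a p of 0.0511 to 0.0552 without SCI 1 or sham 4, 0.115 with the covariate and 0.0607 in the 5-array set. Ifi44, an interferon-induced cytoplasmic protein, read 4.65, 5.07, 5.02 and 4.77 on the SCI arrays, against 4.65, 4.24, 4.52 and 4.31 on the sham arrays. SCI 1 and sham 1 both read 4.65, and the rise of 0.44 (SE 0.13, adjusted p = 0.0466) was lost without SCI 2, 3 or 4 or sham 2, 3 or 4 (0.0582 to 0.129). It was also lost with median centring, quantile normalization, array weights, all probe sets tested (0.122), the covariate (0.188) and the 5-array set (0.19). Rtp4, a receptor transporter protein, read 3.35, 3.38, 3.02 and 3.38 on the SCI arrays, against 3.01, 3.08, 2.93 and 2.83 on the sham arrays. SCI 3 lay inside the sham range, and the difference was 0.32 (SE 0.11, adjusted p = 0.0872), which passed without SCI 3 (0.0303). Xaf1, which promotes cell death, read 3.93, 4.47, 4.09 and 3.78 on the SCI arrays, against 3.73, 3.76, 3.64 and 3.61 on the sham arrays. The groups were 0.01 apart with SCI 2 far above the rest, and the difference was 0.38 (SE 0.14, adjusted p = 0.102), which passed without SCI 4 (0.0439).

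Among the SCI arrays, SCI 2 was the highest SCI array in 20 of the 36 genes, among them Irf7, Irf9, Stat2, Usp18, Mx1, Isg15, Ifit2, Ifit3, Rsad2, Ifitm3 and Ifi27. SCI 4 was the lowest in 21 genes and the highest in 1, Ifngr2. Ifitm1, Ifi47, Igtp and Irgm were instead highest on SCI 1, and Ifitm2, Mx2, Gbp2 and Parp9 on SCI 3. Mean log2 signal over the 33 induced genes was 5.43, 5.55, 5.40 and 5.11 on SCI arrays 1 to 4, and 4.75, 4.73, 4.58 and 4.62 on sham arrays 1 to 4. The mean over the 3 receptors was 7.37, 7.43, 7.29 and 7.29 on the SCI arrays and 6.79, 6.74, 7.02 and 6.90 on the sham arrays. Both lists were thus highest on SCI 2, and the sham order differed between them. Sham 1 was the highest sham array in 14 genes and sham 4 the lowest in 14.

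**Figure D3:**
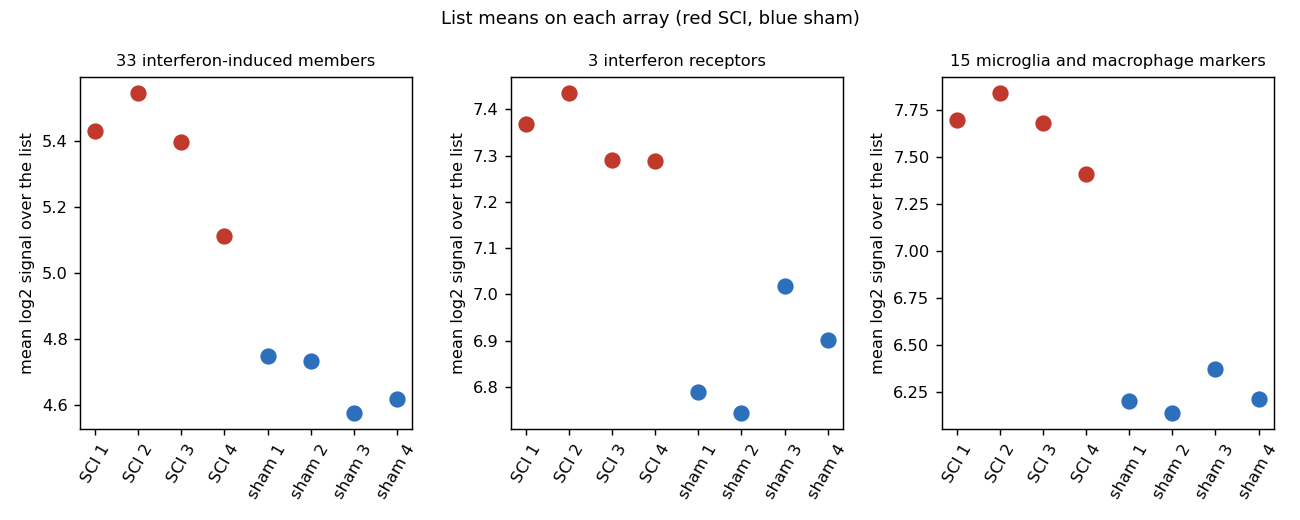
Mean log2 signal (vertical axis) on each array, over the 33 induced genes, the 3 receptors and 15 microglia and macrophage markers, with SCI in red and sham in blue. In the panels of induced genes and of markers SCI 2 is highest and SCI 4 lowest among the SCI arrays, at 5.55 and 5.11 for the induced genes and 7.84 and 7.41 for the markers.

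The tissue itself differed between groups in cell markers, and in whole tissue a change in the number of cells of a type and a change in RNA per cell cannot be told apart. Of 15 microglia and macrophage markers 13 were higher in SCI. Not called were P2ry12 (0.45, adjusted p = 0.0853) and Tmem119 (-0.10, adjusted p = 0.779). The mean of the 15 was 7.69, 7.84, 7.68 and 7.41 on SCI arrays 1 to 4, against 6.20, 6.14, 6.37 and 6.21 on the sham arrays. The SCI arrays with the highest and lowest mean were those with the highest and lowest mean of the induced genes. Among the SCI arrays, the first principal component over all genes was likewise highest on SCI 2 (30.25) and lowest on SCI 4 (14.2). The means of the neuronal markers and of the Hox genes described below had the reverse, at 8.83 and 5.67 on SCI 2 and 9.08 and 5.76 on SCI 4. The other marker lists had neither order of extremes. The part of microglia and macrophages in the interferon result was not tested. Of 14 T and NK cell markers 4 were higher (Cd3g, Cd4, Cd8a and Cd8b), with list means of 3.41 to 3.49 in SCI and 2.96 to 3.07 in sham, and rat macrophages also carry CD4 and CD8. The other 10 were not called, among them Cd3d (0.18, adjusted p = 0.53) and Cd3e (0.13, adjusted p = 0.645). None of 5 B and plasma cell markers was called, nor Ccr2 among monocyte genes, of which 2 of 8 (Cd14 and Fcgr3a) were higher. Of 4 plasmacytoid dendritic cell markers Irf8 alone was higher. Markers of the cord's own cells were lower in 8 of 8 neuronal and 6 of 7 oligodendrocyte genes, against 7.06% of all genes. Among 7 astrocyte genes 2 were higher and 1 lower. Of 8 endothelium and pericyte genes Cdh5 alone was higher (0.68, adjusted p = 0.00814), and 7 were not called. No marker reads 0 on this scale, and no detection call was used, so none can be called absent. Of 7 Hox genes, which mark position along the cord, Hoxa7 was lower in SCI, at 7.02 in SCI and 7.44 in sham (adjusted p = 0.0342), and 6 were not called. Among those 6, Hoxc8 read 8.13 in SCI and 8.08 in sham, and Hoxb8 read 7.00 in SCI and 7.36 in sham (adjusted p = 0.0839), with all SCI arrays below all sham arrays. Mbp of myelin read 10.98 in SCI and 11.68 in sham.

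The pathway around these genes was described with a separate list of 122 genes, of which 92 were measured. Of these, 31 were higher and 1 was lower in SCI, with a median difference of 0.36. In the 5-array set the counts were 18 and 0. Among 8 interferon genes 0 were called higher or lower. Ifnb1, the first type I interferon made, averaged 2.36 ± 0.28 in SCI and 1.97 ± 0.20 in sham (SD, n = 4 each), a difference of 0.39 (SE 0.15, adjusted p = 0.116). It passed without SCI 2 (0.52, adjusted p = 0.0444). Ifng, which encodes interferon gamma, averaged 2.84 ± 0.26 in SCI and 2.55 ± 0.22 in sham, a difference of 0.29 (SE 0.15, adjusted p = 0.259). Ifna2 had -0.36 (adjusted p = 0.271). RMA is known to compress differences of weak signals, and whether it did so here was not tested.

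Of 13 kinases, STATs, receptor partners and feedback genes, 5 rose and 1 fell. Il10rb led them, followed by the phosphatase Ptpn6 (SHP-1), which restrains receptor signalling in blood-derived cells, with 0.93 (SE 0.11, adjusted p = 0.000357). Stat3, the factor of the interleukin 6 family, rose by 0.59 (SE 0.09, adjusted p = 0.00209). The kinase Tyk2, bound to Ifnar1, rose by 0.45 (SE 0.12, adjusted p = 0.0316). Its p was 0.0574 to 0.0921 without SCI 2, 3 or 4 or sham 2, 3 or 4. It was 0.0944 with the covariate, 0.0897 with all probe sets tested and 0.173 in the 5-array set. Jak1, which serves both receptors, averaged 8.10 ± 0.04 in SCI and 7.87 ± 0.06 in sham, a difference of 0.23 (SE 0.08, adjusted p = 0.102), which passed with a trended robust variance (0.0231) and with dim genes filtered out (0.0319). Jak2 had 0.12 (SE 0.12, adjusted p = 0.613). The feedback inhibitor Socs3 rose by 0.77 (adjusted p = 0.0174), while Socs1 had 0.08 (adjusted p = 0.887), both named after their values were seen. Ptpn11 (SHP-2), named as the only fall of the list, fell by 0.42 (SE 0.10, adjusted p = 0.0159), a call lost with the covariate and in the 5-array set.

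Of 6 other IRF genes 3 rose, led by Irf8, a factor of myeloid cells, with 0.85 (SE 0.11, adjusted p = 0.000573). Irf5 rose by 0.74 (SE 0.14, adjusted p = 0.00516) and Irf2, which competes with Irf1, by 0.47 (SE 0.10, adjusted p = 0.0128). In the 5-array set the p was 0.0628 for Irf5 and 0.0943 for Irf2, and with the covariate it was 0.0669 for Irf2. Irf3, present before stimulation and activated by phosphorylation, had 0.22 (SE 0.15, adjusted p = 0.413), and passed without SCI 4 (0.38, adjusted p = 0.0480). Of 8 genes that lead to interferon production, 4 rose. Tlr7, an endosomal receptor of single-stranded RNA, rose by 1.47 (SE 0.17, adjusted p = 0.000338), the adaptor Myd88 by 0.67 (SE 0.10, adjusted p = 0.00122) and Tlr3, a receptor of double-stranded RNA, by 0.45 (SE 0.11, adjusted p = 0.0170). The p of Tlr3 was 0.0517 without SCI 1, 0.0943 with the covariate, 0.0553 with all probe sets tested and 0.157 in the 5-array set.

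Of 57 further interferon-induced genes, 19 were higher and 0 lower, with a median of 0.40. The lysosomal reductase Ifi30, which prepares antigens, averaged 7.07 ± 0.31 in SCI and 5.07 ± 0.21 in sham (SD, n = 4 each), a rise of 1.99 (SE 0.16, adjusted p = 4.7e-05). The immunoproteasome subunit Psmb8 rose by 0.93 (SE 0.10, adjusted p = 0.0002) and the complement inhibitor Serping1 by 1.84 (SE 0.22, adjusted p = 0.000455). The other 38 did not pass. They included the chemokine gene Cxcl10, chosen after its value was seen, at 0.87 (SE 0.26, adjusted p = 0.0509), and Ifit1, likewise chosen, at 0.54 (SE 0.29, adjusted p = 0.285).

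**Figure D4:**
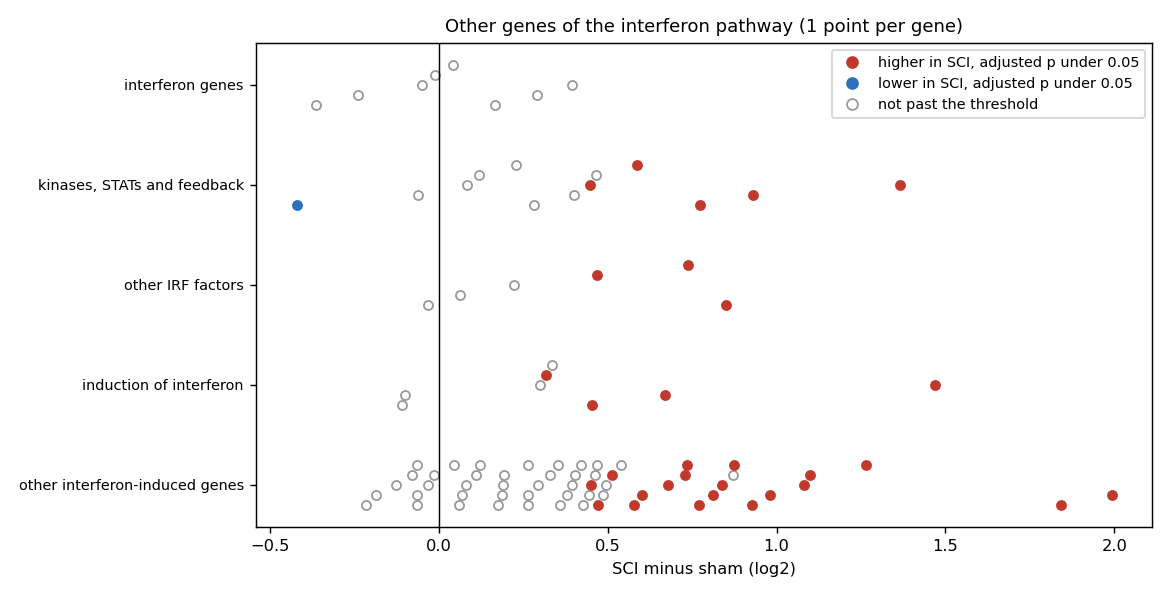
Difference between SCI and sham (horizontal axis, log2) for each of the 92 other pathway genes, by list, with vertical offsets only to separate points. Red points were called higher, the blue point (Ptpn11) lower, and open points did not pass; the 8 interferon genes are all open.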

How the data were processed

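RNA of whole thoracic cord was hybridised to Affymetrix Rat Gene 2.0 ST arrays, 4 SCI and 4 sham. Values are log2 signals as deposited, made by the authors with Affymetrix Expression Console and RMA, per the submitters' processing notes. RMA by design corrects background, normalizes between arrays and summarises probes. For tool versions, probe library and genome build, nothing is given in the sources used here. Array medians were 3.73 to 3.81. The first principal component (45.6% of variance) parted the groups, and the second (11.2%) set SCI 3, sham 1 and sham 2 apart.

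Of 36685 probe sets, 18511 had 1 symbol, 575 several and 17599 none here. Symbols were matched by gene ID to RefSeq GRCr8 (18394 matched, 0 changed). For 291 genes with more than 1 probe set the brightest was kept. SCI and sham were compared over all 18166 genes with limma 3.58.1 in R 4.3.3 (lmFit, eBayes, no covariate, Benjamini-Hochberg, threshold 0.05), after a test of the code on simulated data. Every adjusted p is from limma. At an unadjusted p under 0.05, 4850 genes and 32 of the 36 passed. The number of arrays limits the precision. Levels of different probe sets were compared only to keep the brightest of a gene and, in 1 alternative, to filter out dim genes.

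The genes and lists were chosen with earlier results of these data known, so no list as a whole has a p. By rule, per-array values were given for the 3 largest differences of each role, the receptors and genes whose call changed without 1 array. Those of Ifitm2, Rsad2, Ifit3, Isg15, Gbp2 and Gbp5 were added after the values were seen. In the pathway list, a few genes were fixed, of which 1 is not reported here, and the 3 with the smallest p per list were named, others after their values were seen. Alternatives were median centring, quantile normalization, a trended robust variance, array weights, a title-number covariate, a filter on dim genes, averaged probe sets, all probe sets tested and single arrays left out. Leaving out the 3 arrays was added after seeing the data.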

Additional observations from a re-analysis of the deposited data

Results flagged for a closer look

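In 110 groups of 4 arrays, 1 array's distance from its nearest neighbour was compared with the group's range (critical ratio 0.829), a test that by chance marks about 1 group in 20, and 8 were marked. Ifih1 was marked in both groups, with SCI 4 low (0.883) at 4.67 against 4.91 to 4.94 on the other SCI arrays, and sham 3 high (0.892) at 4.50 against 4.02 to 4.07 on the other sham arrays. Sham 2 was low in Stat2 (0.869, at 5.81), Ifit2 (0.839, at 4.92) and Il10rb (0.839, at 5.94). SCI 2 was high in Ifi27 (0.857, at 10.00). SCI 3 was low in Rtp4 (0.917), at 3.02 against 3.35 to 3.38 on the other SCI arrays. SCI 4 was low in Ifi30 (0.868), at 6.60 against 7.19 to 7.28.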

How the results depend on the processing

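Of the 24 rises, 16 kept their call without any single array, 5 did so under each of 17 alternatives, and Mx1 under the 16 that tested it (the filter on dim genes removed 13 of the 36 genes). Of the rises, 14 lost it with the title-number covariate, and 15 in the 5-array set. The causes were not tested. With the covariate, 10 of the 36 genes were higher, 4 at least 2-fold, and over all genes 813 were higher and 543 lower, with 0 pathway genes lower. Without the 3 arrays these values were 9, 4, 563, 284 and 0, with 18 pathway genes higher. With all probe sets tested, 12 genes of the 36 were higher and 4 at least 2-fold, and 838 probe sets were lower. Leaving out single arrays gave 17 to 23 higher, 5 to 9 at least 2-fold, 26 to 31 pathway genes higher and 1 lower, and over all genes 923 to 1257 higher and 780 (without SCI 2) to 1283 lower, with 838 lower without sham 4. The median difference of the 36 was 0.49 to 0.60 in those fits. Gbp5 was the only one of the 36 to change sign, to -0.19 with the covariate, and between -0.24 and 0.20 without single arrays. Of the 12 genes that did not pass, 5 passed under at least 1 alternative. No paired analysis was possible because the labels give the groups no shared replicate numbers.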
